A study of Mus musculus with 30 samples.

Results

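The comparison of nerve injury with sham surgery in desipramine-treated mice set 4 libraries from spared nerve injury (SNI) mice against 4 libraries from sham-operated mice, 8 of the 30 libraries in the series. All 8 were chosen by their labels and belong to the first of the series' library sets. Each library held polyadenylated RNA from both nucleus accumbens punches of 1 male C57Bl/6J mouse. The SNI group had tibial SNI surgery and the sham group had sham surgery. After 4 weeks, both groups received desipramine at 15 mg/kg, injected intraperitoneally 2 times a day for 3 weeks. No group had desipramine without surgery, and the age of the mice was not given in the labels. The other 22 libraries came from SNI and sham mice given tianeptine at 30 mg/kg (6 and 6 libraries) or saline (5 and 5), and served to estimate the spread and to show the range of each gene outside the desipramine groups. Replicates were separate animals, so the spread between them holds both biological and dissection differences.

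Spared nerve injury cuts part of the sciatic nerve's branches and leaves lasting hypersensitivity of the paw. Desipramine is a tricyclic antidepressant that blocks the noradrenaline transporter, and drugs of this class are used against neuropathic pain. The nucleus accumbens, in the ventral striatum, is built mostly of GABAergic medium spiny neurons with D1 or D2 dopamine receptors, with sparse cholinergic and GABAergic interneurons among them. The cerebral cortex, septum, bed nucleus, basal forebrain and thalamus lie around or near it, and their neurons express other transmitter and peptide genes. A punch can take in some of that tissue.

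The libraries differed in tissue makeup in a way that ran largely along the surgery groups. CPM is a gene's count scaled to the size of its library. The score of a marker list was the mean over its genes of the log2 CPM relative to the mean of all 30 libraries. For cholinergic neuron markers the score was 1.15, 1.49, 1.19 and 0.05 in SNI replicates 1 to 4, against -0.68, -0.29, -1.47 and 0.08 in sham replicates 1 to 4, where the other 22 libraries lay between -0.97 and 0.83. Septal, preoptic and hypothalamic markers scored 0.31, 1.14, 1.16 and -0.09 in the SNI libraries, against -0.23, -0.34, -0.28 and -0.05 in the sham libraries. The other 22 libraries had septal scores of -0.66 to 0.86. The summed level of the septal list was 1080, 1350, 1270 and 1030 CPM in the SNI libraries. It was 741, 837, 721 and 1300 CPM in the sham libraries, and 538 to 1540 CPM in the other 22. Cortical and amygdalar excitatory markers ran the other way, with -1.28, -0.99, -0.47 and 0.11 in the SNI libraries, against 1.17, 0.62, 1.37 and -0.80 in the sham libraries. All 8 cortical scores lay within the range of the other 22 libraries, -1.36 to 1.51. Relative to the other surgery group, SNI replicates 1 to 3 were therefore high in cholinergic markers and sham replicates 1 to 3 in cortical markers. SNI replicate 4 had the lowest cholinergic and highest cortical score of its group, and sham replicate 4 the highest cholinergic and lowest cortical score of its group. Thalamic and astrocyte scores were also highest in SNI replicates 1 to 3, at 0.32 to 0.95 and 0.38 to 0.80, against at most -0.10 and -0.09 in the sham libraries. Medium spiny neuron markers, which define the labelled tissue, were present in all 8 libraries. Their score was -0.27, -2.11, -0.73 and 0.37 in the SNI libraries, against 0.00, 0.34, -0.28 and 0.52 in the sham libraries. Their summed level was 9380, 2520, 6770 and 14500 CPM in the SNI libraries, against 10800, 14200, 8660 and 16200 CPM in the sham libraries. SNI replicates 2 and 3 were below all of the other 22 libraries, which spanned 8200 to 15600 CPM. In whole punches, fewer cells of a type and less RNA per cell cannot be told apart. Total counts were 25.7 to 28.5 M in SNI libraries and 24.8 to 35 M in sham libraries, and mitochondrial transcripts made up 1.42 to 1.66% of them in SNI libraries and 1.2 to 1.53% in sham libraries. The SNI libraries carried the library numbers 5 to 8 and the sham libraries 17 to 20, so surgery and position in the numbering cannot be told apart.

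**Figure D1:**
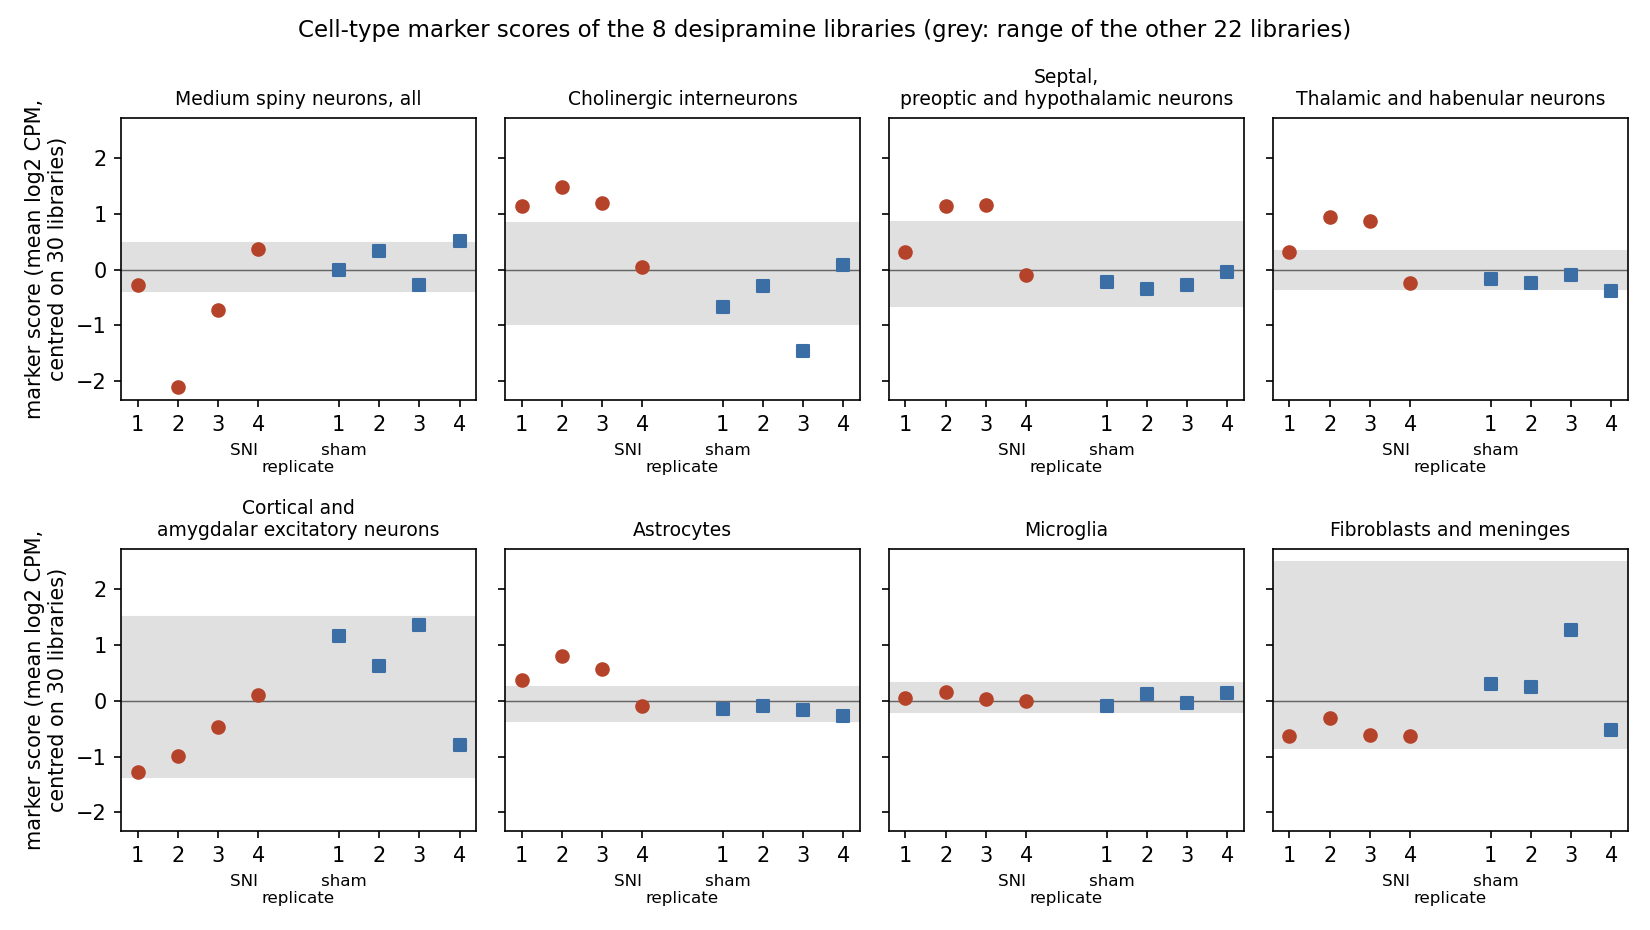
Marker scores (mean log2 CPM relative to all 30 libraries) for cell type lists, with 1 point per desipramine library and the SNI libraries left of the sham libraries. SNI replicates 1 to 3 score 1.15 to 1.49 for cholinergic markers, above every sham library, and SNI replicate 2 scores -2.11 for medium spiny neuron markers.

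In the SNI libraries, 9 of 10 cholinergic neuron genes were higher than in sham libraries, as were 9 of 25 septal (1 was lower), 4 of 13 thalamic, 9 of 18 astrocyte and 5 of 21 GABA transmission genes. Of 34 immediate early genes 7 were lower, and of 39 ionotropic glutamate receptor and scaffold genes 10 were lower and 5 higher. Between the SNI and sham libraries on desipramine, 2682 of 23736 genes tested differed, 11.3%, at an adjusted p under 0.05 (edgeR's quasi-likelihood test, Benjamini-Hochberg adjustment over all genes tested). These genes are called higher or lower below, always in SNI relative to sham. There were 1713 higher (7.22%) and 969 lower (4.08%), with median log2 fold changes of 0.65 and -0.47. A difference of at least 1 on the log2 scale was seen for 502 of the higher genes and 104 of the lower ones. The 4 SNI libraries did not overlap the 4 sham libraries for 2365 genes (9.96%), 1303 of them higher (5.49%) and 1062 lower (4.47%), and 1183 of the called genes were among them. Predicted gene models made up 566 of the called genes and are not named here.

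The libraries did not contribute alike. For the genes called higher, 97.1%, 99.8% and 99.6% were above every sham library in SNI replicates 1, 2 and 3, but 41.6% in SNI replicate 4. The median level of these genes relative to the sham mean was 0.55, 0.99, 0.75 and 0.12 on the log2 scale in SNI replicates 1 to 4, and that of the genes called lower was -0.41, -0.81, -0.58 and -0.13. Of the genes called lower, 97.9%, 99.7%, 99.3% and 51.8% were below every sham library in SNI replicates 1 to 4. Set against the 22 libraries from other treatments, SNI replicates 1 to 3 were above all of them for 37.6%, 85.6% and 71% of the genes called higher, and SNI replicate 4 for 0.759%. The 4 sham libraries were below all 22 for 11.8%, 11%, 15.4% and 16.6% of the same genes. Leaving out SNI replicate 2 left 0 called genes (4177 at an unadjusted p under 0.05), leaving out sham replicates 1 and 3 together left 0 (5827 unadjusted), and leaving out SNI replicate 4 gave 5903. It was 613 without SNI replicate 3, 1561 without sham replicate 1 and 1344 without sham replicate 3. The 8 libraries fitted alone gave 0 called genes (4569 unadjusted). With the medium spiny neuron, septal and cortical scores as covariates the count was 0 (1821 unadjusted), and 98.8% of the 2682 genes kept their direction at medians of 0.23 and -0.19. Every list count below is therefore 0 without SNI replicate 2. The scores come from these same libraries and run largely along the surgery groups, so in the fits with scores tissue makeup and surgery cannot be told apart. The part of tissue makeup was not tested. In the fit with 3 scores, list medians were 0.70 for cholinergic genes, 0.24 for astrocyte genes, 0.08 for thalamic genes, -0.10 for ionotropic glutamate genes and -0.16 for immediate early genes, with 0 genes called in each. With the cholinergic score added, a choice made after seeing the data, these medians were 0.01, 0.07, 0.12, -0.05 and -0.07, and 87.7% of the 2682 genes kept their direction. That score is the mean of the cholinergic genes themselves, so their median of 0.01 is built in. The 2682 genes were called in these same libraries, so kept direction is not separate support.

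**Figure D2:**
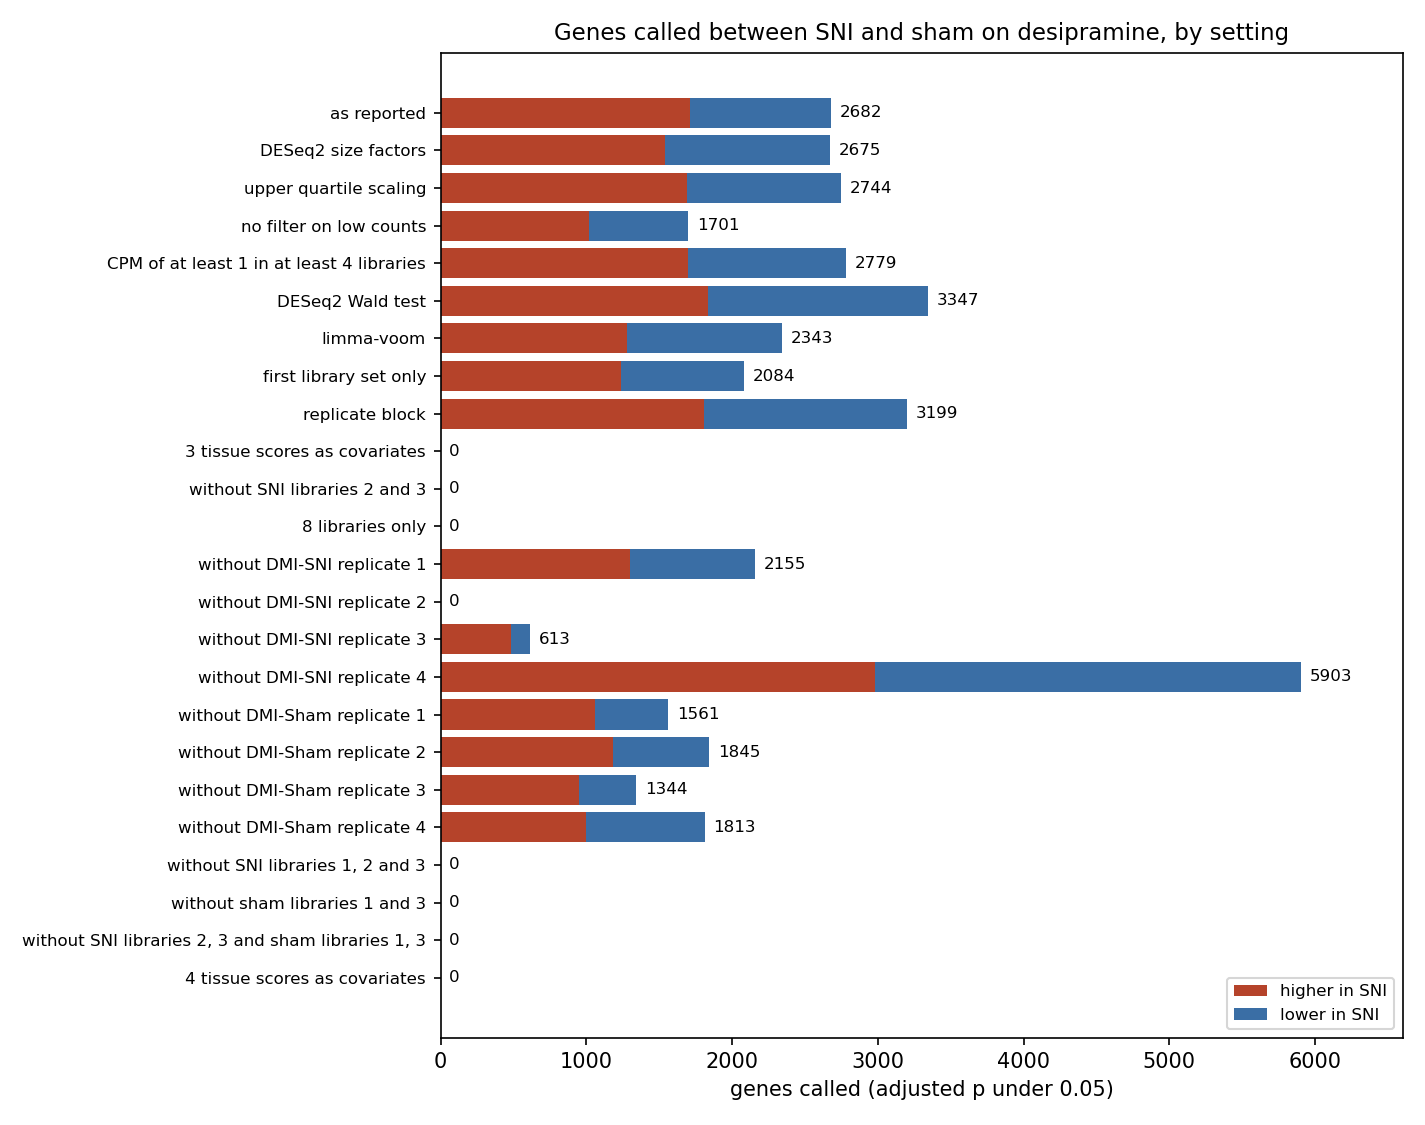
Number of genes called higher and lower in SNI against sham on desipramine under each setting of the analysis. The count is 2682 as fitted, 5903 without SNI replicate 4, and 0 without SNI replicate 2, with the 8 libraries alone and with tissue scores as covariates.

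The genes with the smallest p that were higher in SNI were led by Gpc5, a glypican of the cell surface that astrocytes express. Gpc5 (chr14:115092215-116525179, plus strand, mm10) was at 50.1, 66.4, 55.1 and 40.8 CPM in SNI replicates 1 to 4, against 35.3, 34.9, 29.3 and 36.2 CPM in sham replicates 1 to 4, a log2 difference of 0.65 ± 0.10 (SE; edgeR adjusted p = 0.0057). All 4 SNI libraries were above all 4 sham libraries, and the other 22 libraries spanned 36.5 to 46.1 CPM. Gldn, which encodes gliomedin, was at 2.72, 6.56, 5.9 and 2.33 CPM in the SNI libraries, against 1.29, 1.39, 0.972 and 1.55 CPM in the sham libraries (1.76 ± 0.28 log2, edgeR adjusted p = 0.0057). Here too the groups did not overlap, and SNI replicates 2 and 3 were the highest of the 8. Tcf7l2, a Wnt pathway transcription factor of thalamic neurons, was higher by 1.88 ± 0.32 on the log2 scale. Mcc (0.88), Smyd1 (0.96), the mitochondrial carrier Ucp3 (1.09) and the corepressor Skor1 (3.25) had the same adjusted p of 0.0057 and groups that did not overlap. Another gene of the 8 smallest p, Uncx, had almost no sham counts and gets no fold here.

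Among the genes with the smallest p that were lower in SNI, Ldha codes for lactate dehydrogenase A, which converts pyruvate to lactate. Ldha (chr7:46841475-46855627, plus strand, mm10) was at 143, 126, 145 and 175 CPM in SNI replicates 1 to 4, against 230, 199, 255 and 205 CPM in sham replicates 1 to 4 (-0.59 ± 0.10 log2, edgeR adjusted p = 0.0057). All SNI libraries were below all sham libraries, while the other 22 libraries spanned 141 to 204 CPM and so held all SNI values but that of SNI replicate 2. Mpp2, a scaffold protein of the synaptic membrane, was at 134, 123, 127 and 139 CPM in the SNI libraries, against 181, 171, 187 and 148 CPM in the sham libraries (-0.39 ± 0.07 log2). Igfbp4, which binds insulin-like growth factors, was at 33.7, 16.1, 22.2 and 46.1 CPM in the SNI libraries, against 59.7, 55.9, 69.7 and 68.7 CPM in the sham libraries (-1.11 ± 0.20 log2, edgeR adjusted p = 0.00579). Thop1, a neuropeptide-cleaving peptidase, was at 39.8, 35.2, 35 and 42.7 CPM in the SNI libraries, against 48.1, 47.6, 49.7 and 47.6 CPM in the sham libraries (-0.34 ± 0.06 log2). The 4 sham values of Thop1 lay close together, and each SNI value was below them. The other genes of smallest p that were lower were the adenylyl cyclase Adcy9 (-0.50), the actin crosslinker Actn4 (-0.43), the ubiquitin ligase adaptor Kctd13 (-0.43) and the protocadherin Pcdh1 (-0.52), none of them with overlapping groups.

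**Figure D3:**
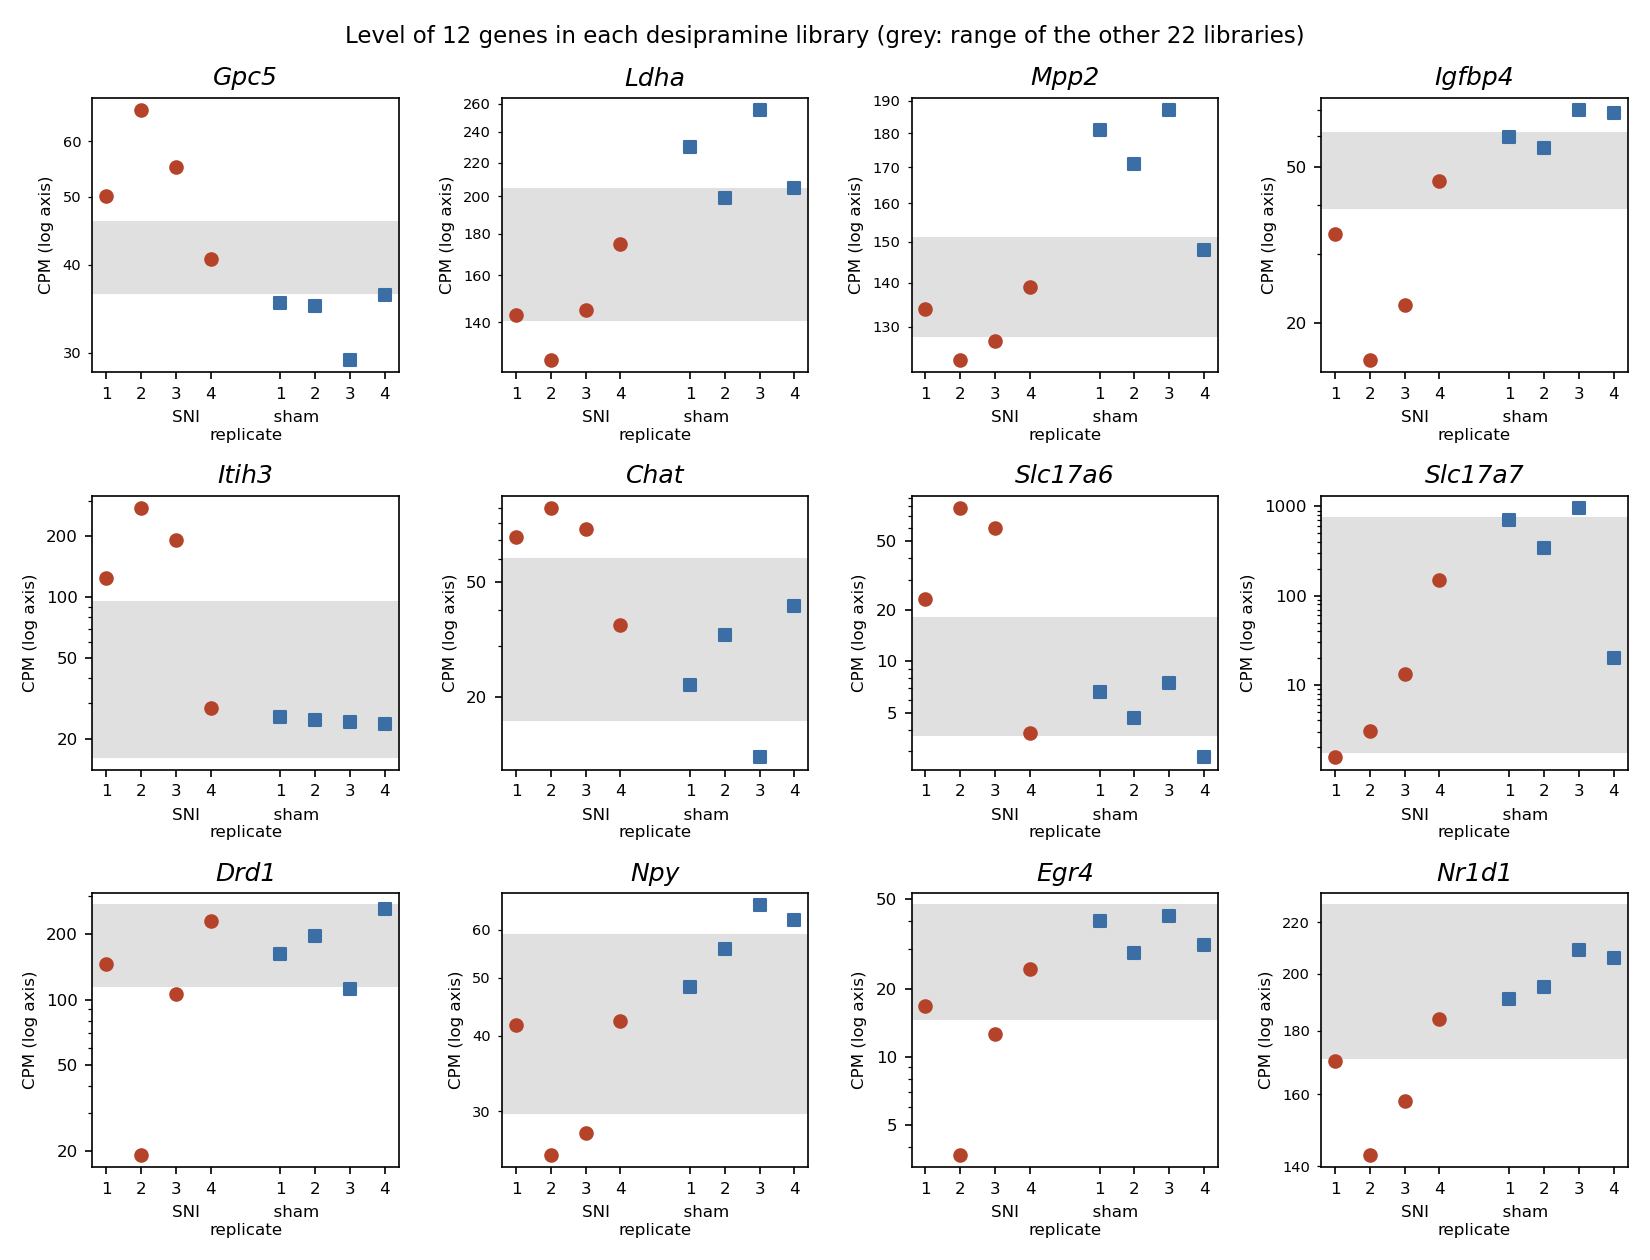
Level of named genes in each desipramine library (CPM, log axis), SNI left of sham, with the range of the other 22 libraries as a grey band. Gpc5 is higher in all 4 SNI libraries and Ldha lower in all 4, while Slc17a7 spans 1.55 to 148 CPM in SNI and 20.2 to 961 CPM in sham.

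The Ldha start region is shown because this gene leads the lower genes and its window carries both a cAMP response element and E-boxes, motifs that CREB and the CLOCK-BMAL1 pair, among other factors, can bind. The window covers the 250 bases before 1 of 2 RefSeq starts of Ldha at chr7:46845554-46845803 on the plus strand (GRCm38.p6), printed 5′ to 3′ with the cAMP response element TGACGTCA and the E-boxes CACGTG in capitals.
Ldha: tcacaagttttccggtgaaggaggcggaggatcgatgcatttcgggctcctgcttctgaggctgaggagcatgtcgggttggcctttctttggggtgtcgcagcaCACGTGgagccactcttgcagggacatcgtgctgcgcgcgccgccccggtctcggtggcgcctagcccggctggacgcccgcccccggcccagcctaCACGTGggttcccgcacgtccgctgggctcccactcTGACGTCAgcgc
Both motifs read the same on either strand, and no position is shared between them. Of 32851 promoter windows of the RefSeq table, searched over their 250 bases before the start, 1.55% held the cAMP response element and 6.02% the E-box. Among the genes named with values, 119 of 147 had such a window, and the cAMP response element stood in 2 of them and the E-box in 9. These matches describe the sequence and not the binding of any factor.

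Among called genes averaging 1 or more in log2 CPM, the largest log2 differences were of genes higher in SNI. Nespas, an antisense RNA of the imprinted Gnas locus, was at 13.4, 45.3, 31.6 and 3.07 CPM in the SNI libraries, against 0.675, 1.26, 1.23 and 2.48 CPM in the sham libraries (4.08 ± 1.04 log2, edgeR adjusted p = 0.016). It overlaps Gnas on the opposite strand, and whether the counting used strand is not given in the sources used here, so its level is uncertain. Agt, angiotensinogen, which astrocytes of some brain regions make, was at 43.8, 113, 84 and 6.55 CPM in SNI replicates 1 to 4, against 5.76, 5.73, 4.34 and 7.17 CPM in the sham replicates (3.43 ± 0.75 log2). SNI replicates 1 to 3 were far above the sham libraries and SNI replicate 4 lay within them. The adaptor Irs4 (3.61 ± 0.90), the prolactin receptor Prlr (3.44 ± 0.97) and the synaptic organizer C1ql2 (3.44 ± 0.73) had the same form, with SNI replicate 4 inside the sham range. The largest log2 differences among lower genes were those of the GTPase Rasl10a (-2.11 ± 0.56), the peptide precursor Cort (-2.0 ± 0.66), Igfbp6 (-1.95 ± 0.48), the angiotensin fragment receptor Mas1 (-1.91 ± 0.62) and Pawr (-1.90 ± 0.52). In these 5 genes sham replicates 1 and 3 were the highest of the 8 libraries, as they were for the cortical marker score.

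**Figure D4:**
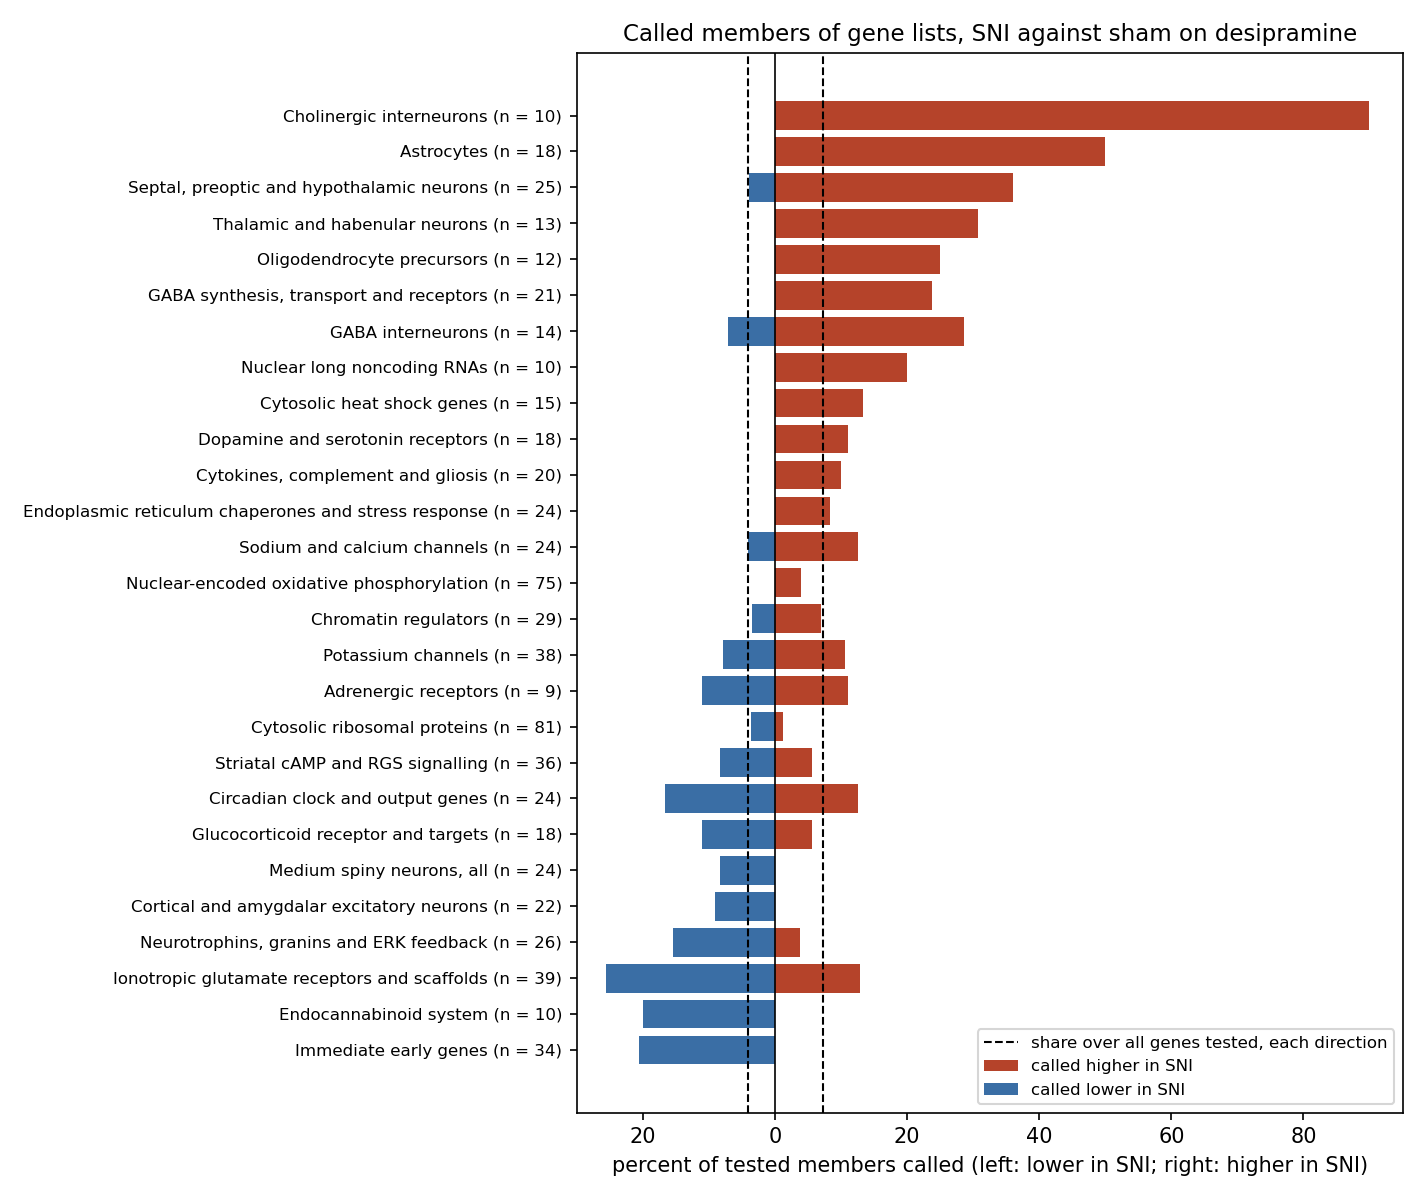
Lists with at least 2 called genes: genes called higher or lower in SNI against sham on desipramine in each gene list, as a percent of the list's tested genes, with dashed lines at the percent over all genes. Cholinergic neuron markers have 9 of 10 called higher and immediate early genes 7 of 34 called lower.

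Cholinergic neuron genes rose in the SNI libraries with the largest share called of the 45 lists examined: 9 of 10 tested were called higher, with a median log2 difference of 1.33, against 7.22% higher and a median of 0.006 over all genes. Chat, choline acetyltransferase, was at 71.6, 90, 75.9 and 35.5 CPM in SNI replicates 1 to 4, against 22.1, 32.7, 12.4 and 41.3 CPM in sham replicates 1 to 4 (1.33 ± 0.37 log2, edgeR adjusted p = 0.023). Slc5a7, the choline transporter, was at 76.2, 88.5, 75.3 and 48.5 CPM in the SNI libraries, against 28.1, 33, 14.3 and 44 CPM in the sham libraries (1.28 ± 0.34 log2). SNI replicates 1 to 3 were above all sham libraries for both genes, and sham replicate 3 was the lowest. The transcription factor Lhx8 was at 47.6, 81.1, 54.1 and 13 CPM in the SNI libraries, against 7.08, 10.7, 3.95 and 15.2 CPM in the sham libraries (2.42 ± 0.59 log2). Gbx1, a homeobox factor, was at 34.5, 48.3, 31.3 and 6.63 CPM in the SNI libraries, against 2.64, 4.46, 1.43 and 4.45 CPM in the sham libraries (3.23 ± 0.76 log2). Gbx1 and Slc5a7 did not overlap between the groups, and SNI replicate 4 lay within the sham range for Chat and Lhx8. The neurokinin receptor Tacr3 (1.74), Gbx2 (2.03), the peptidase Ecel1 (1.06) and the vesicular acetylcholine transporter Slc18a3 (1.33) also rose. Without SNI replicate 3 or sham replicate 3 the list had 3 genes called higher, and without sham replicate 1 it had 5. Slc18a3 lies inside Chat, and reads of these overlapping genes may not be told apart. The list marks cholinergic neurons wherever they lie, and it does not separate accumbens interneurons from those of the septum and basal forebrain.

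Of 14 GABA interneuron markers, 4 were higher and 1 was lower, 35.7% against 11.3% over all genes. There were 2 higher without SNI replicate 3, and 6 higher and 3 lower without SNI replicate 4. Lhx6, a transcription factor of interneurons from the medial ganglionic eminence, was at 108, 147, 110 and 39.2 CPM in the SNI libraries, against 25.9, 35.6, 24 and 38.2 CPM in the sham libraries (1.71 ± 0.39 log2, edgeR adjusted p = 0.0102). Pvalb, parvalbumin, was at 20.1, 31.2, 18 and 7.14 CPM in the SNI libraries, against 5.02, 6.65, 5.93 and 6 CPM in the sham libraries (1.70 ± 0.46 log2). Both were highest in SNI replicate 2, and SNI replicate 4 cleared the sham libraries only narrowly. Sox6 (0.84) and Npas1 (1.22) were higher as well. The neuropeptide Npy went the other way, with 41.7, 25.4, 27.6 and 42.3 CPM in SNI replicates 1 to 4, against 48.2, 55.8, 65.9 and 62.3 CPM in the sham replicates (-0.76 ± 0.17 log2, edgeR adjusted p = 0.00935). All 4 SNI libraries were below all 4 sham libraries for Npy. Sst, somatostatin, differed by -0.29 ± 0.12 on the log2 scale and did not pass (edgeR adjusted p = 0.0992).

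Markers of neurons outside the striatum were the next groups. Of 25 septal, preoptic and hypothalamic genes, 9 were higher and 1 was lower (40%, against 11.3% over all genes), with a median log2 difference of 0.62. Gal, the galanin precursor, was at 1.36, 11.4, 16.2 and 0.185 CPM in SNI replicates 1 to 4, against 0.323, 0.4, 0.551 and 0.294 CPM in the sham replicates (4.20 ± 0.88 log2, edgeR adjusted p = 0.00735). Only SNI replicates 1 to 3 were above the sham range, and SNI replicate 4 was below every sham library. Trh (1.47), Crh (1.90) and Ghrh (1.78), precursors of releasing hormones, and Asb4 (2.45), the imprinted gene Magel2 (1.91) and neuroglobin, Ngb (2.03), rose together with Irs4 and Prlr, while Lhx2 fell (-1.0). With 3 tissue scores as covariates the differences of Irs4, Asb4, Magel2 and Ngb were -0.02, -0.11, -0.13 and -0.15, and without SNI replicates 2 and 3 that of Trh was -0.07. Irs4, Asb4, Magel2 and Ngb help make up the septal score, a covariate, so differences near 0 in that fit are partly built in. Thalamic and habenular genes had 4 of 13 higher (30.8%), a median of 0.60. Among them Gbx2 is also counted in the cholinergic list, and Rora in the clock list. Slc17a6, the vesicular glutamate transporter of thalamic neurons, was at 23, 78.3, 60.2 and 3.85 CPM in the SNI libraries, against 6.67, 4.68, 7.45 and 2.77 CPM in the sham libraries (2.93 ± 0.64 log2, edgeR adjusted p = 0.00845). It was highest in SNI replicates 2 and 3, and SNI replicate 4 was within the sham range. Rora, a nuclear receptor of thalamic neurons and of the clock, was at 54.5, 63, 61.6 and 52.7 CPM in the SNI libraries, against 43.8, 42.5, 39.4 and 46.8 CPM in the sham libraries (0.43 ± 0.12 log2). The septal list had 1 gene called higher without SNI replicate 3, and 5 without sham replicate 1 or 3. The thalamic list had 2 without SNI replicate 3 or sham replicate 3, and 8 without SNI replicate 4.

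Cortical and amygdalar excitatory neuron genes had 2 of 22 lower, Emx2 (-0.67 ± 0.22) and Lmo3 (-1.19 ± 0.34), at a median log2 difference of -1.18. That is 9.09% called, against 11.3% over all genes. Slc17a7, the vesicular glutamate transporter of cortical neurons, was at 1.55, 3.02, 13.1 and 148 CPM in SNI replicates 1 to 4, against 706, 338, 961 and 20.2 CPM in sham replicates 1 to 4. Each group spanned more than an order of magnitude, the groups overlapped, and the log2 difference of -3.61 ± 1.69 did not pass (edgeR adjusted p = 0.164). It was 0.25 with 3 tissue scores as covariates, but Slc17a7 is itself part of the cortical score used there. The summed level of the list was 864 to 1500 CPM in the SNI libraries, against 1380 to 2920 CPM in the sham libraries. Without SNI replicate 4 there were 8 genes called lower, and none without SNI replicate 1 or 3 or sham replicate 1 or 3.

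Medium spiny neuron genes all had a fitted difference below 0, 24 of 24, with a median of -0.61, but 2 were called. That is 8.33%, below the 11.3% over all genes. Rgs14, a regulator of G protein signalling, was at 62.6, 13.4, 42 and 94.3 CPM in the SNI libraries, against 90.9, 107, 91.8 and 132 CPM in the sham libraries (-0.99 ± 0.29 log2, edgeR adjusted p = 0.0314). Spata2l fell as well (-0.64 ± 0.18). Drd1, the D1 dopamine receptor, was at 145, 19.3, 106 and 231 CPM in SNI replicates 1 to 4, against 162, 196, 112 and 261 CPM in the sham replicates (-0.54 ± 0.40 log2, edgeR adjusted p = 0.395). SNI replicate 2 was the lowest of the 8 for Drd1 and Rgs14, and SNI replicate 4 was within the sham range for both. Drd2, the D2 receptor, differed by -0.73 ± 0.36 and did not pass. With 3 tissue scores as covariates the difference of Drd1 was 0.14. Of the D1 pathway list 1 of 10 was lower, Eya1 (-1.08 ± 0.31), and of the D2 pathway list 0 of 9 passed. Without SNI replicate 4, 21 of the 24 medium spiny neuron genes were called lower. None was without SNI replicate 2 or 3 or sham replicate 2 or 4, and 1 was without sham replicate 3.

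Glial genes rose in part. Of 18 astrocyte genes 9 were higher and none was lower (50% called, against 11.3% over all genes), a median of 0.42. Itih3, a hyaluronan-binding protein of the extracellular matrix, was at 125, 276, 192 and 28.5 CPM in SNI replicates 1 to 4, against 25.6, 25, 24.4 and 23.8 CPM in the sham replicates (2.65 ± 0.56 log2, edgeR adjusted p = 0.00735). Aldh1l1, the folate enzyme that marks astrocytes, was at 61.8, 69.1, 60.9 and 51 CPM in the SNI libraries, against 44.1, 50.4, 45.4 and 44.2 CPM in the sham libraries (0.40 ± 0.09 log2). For both genes all SNI libraries were above all sham libraries, SNI replicate 4 by the smallest step. The growth factor receptor Fgfr3 (0.38), S100b (0.61), the amino acid transporter Slc7a10 (0.65), the sodium pump subunit Atp1b2 (0.64) and Acsbg1 (0.44) were higher along with Gpc5 and Agt. Of the 18, 16 had a fitted difference above 0. Slc1a2, the main glutamate transporter of astrocytes, differed by -0.29 ± 0.15 and did not pass (0.08 with 3 tissue scores as covariates). The summed level of the list was 4620 to 4880 CPM in SNI libraries, against 4290 to 4610 CPM in sham libraries. Oligodendrocyte precursor genes had 3 of 12 higher, among them Lhfpl3, at 78.7, 100, 79.4 and 60 CPM in the SNI libraries, against 52.5, 49.8, 42.7 and 51 CPM in the sham libraries (0.70 ± 0.13 log2, edgeR adjusted p = 0.00598). The lineage factor Olig1 (0.50) and the growth factor receptor Pdgfra (0.23) were the other two. Of 22 oligodendrocyte and myelin genes 1 was higher, the tetraspanin Tspan2 (0.43), a share of 4.55% below the 7.22% called higher over all genes. Microglial, endothelial, pericyte, interferon and antigen presentation lists had 0 genes called. The fibroblast and meninges list had 1 of 20 genes called, higher, but 17 fitted differences below 0 and a median of -1.04. The called gene was Pdgfra, which is also counted in the precursor list. Its median was -1.35 on saline. Its score was -0.64 to -0.31 in the SNI libraries, against -0.52 to 1.27 in the sham libraries.

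The target of desipramine itself, the noradrenaline transporter gene Slc6a2, had 0 to 1 counts in SNI libraries and 0 to 2 counts in sham libraries and was not tested. Its RNA lies in cell bodies of the brainstem, outside the punch. Of 9 adrenergic receptor genes, 1 was higher and 1 was lower, where 7.22% of all genes were higher and 4.08% lower. Adra1a, the alpha-1A receptor, was at 51.6, 74.7, 53.7 and 44.7 CPM in SNI replicates 1 to 4, against 37.9, 36, 32.9 and 43.3 CPM in sham replicates 1 to 4 (0.58 ± 0.15 log2, edgeR adjusted p = 0.0162). Adrb1, the beta-1 receptor, was at 19.2, 15.1, 15.7 and 18.3 CPM in the SNI libraries, against 25.1, 19.1, 27.5 and 19.1 CPM in the sham libraries (-0.41 ± 0.14 log2, edgeR adjusted p = 0.047). The groups did not overlap for Adra1a, though SNI replicate 4 was close to sham replicate 4, and they overlapped for Adrb1, whose highest values were in sham replicates 1 and 3.

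Of 8 opioid receptor and peptide genes 1 was higher (12.5%, near the 11.3% over all genes). None was called without SNI replicate 2 or 3 or sham replicate 2 or 4, and 2 were higher and 3 lower without SNI replicate 4. Oprl1, the nociceptin receptor, was at 52.3, 75.9, 61.3 and 35.5 CPM in the SNI libraries, against 37.7, 34.4, 39.2 and 35.3 CPM in the sham libraries (0.62 ± 0.17 log2, edgeR adjusted p = 0.0222). Oprm1, the mu receptor, was at 66, 67.8, 66.7 and 82.8 CPM in the SNI libraries, against 92.3, 63.7, 84.2 and 73.1 CPM in the sham libraries, a log2 difference of -0.15 ± 0.17 with a 95% interval of -0.50 to 0.21 that did not pass. Pdyn, the dynorphin precursor made by D1 neurons, was at 217, 31.7, 108 and 341 CPM in SNI replicates 1 to 4, against 255, 311, 167 and 415 CPM in the sham replicates (-0.72 ± 0.41 log2, edgeR adjusted p = 0.257). As with Drd1, SNI replicate 2 held the lowest Pdyn value. The kappa receptor Oprk1 (-0.35 ± 0.30), the delta receptor Oprd1 (-0.33 ± 0.24) and the enkephalin precursor Penk (-0.45 ± 0.30) did not pass either, and with 3 tissue scores as covariates their differences were above 0 (0.21 for Oprk1, 0.20 for Oprd1 and 0.06 for Penk). Penk is itself part of the medium spiny neuron score used as a covariate. Dopamine and serotonin receptors had 2 of 18 higher (11.1%, about the share over all genes), and 0 without SNI replicate 2 or 3. Htr7, a serotonin receptor, was at 17, 31.9, 24.1 and 5.37 CPM in the SNI libraries, against 8.05, 5.45, 8.84 and 4.03 CPM in the sham libraries (1.57 ± 0.39 log2), and the D5 receptor Drd5 was higher by 0.66 ± 0.19.

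Among 39 genes of ionotropic glutamate receptors and their scaffolds, 5 were higher and 10 lower, with a median log2 difference of -0.32. That is 38.5% called, against 11.3% over all genes. Among those that rose, Grin2d, an NMDA receptor subunit of interneurons, was at 58.6, 90.5, 70.8 and 32.3 CPM in the SNI libraries, against 31.2, 32.6, 33.7 and 31.8 CPM in the sham libraries (0.96 ± 0.20 log2, edgeR adjusted p = 0.00725). The kainate subunits Grik1 (1.42) and Grik4 (0.44), the AMPA subunit Gria4 (0.54) and stargazin, Cacng2 (0.40), rose with it. Several that fell code for scaffold proteins of the postsynaptic density. Cnih2, which escorts AMPA receptors, was at 155, 111, 127 and 195 CPM in the SNI libraries, against 215, 225, 241 and 198 CPM in the sham libraries (-0.58 ± 0.14 log2, edgeR adjusted p = 0.0106). Dlg4, the scaffold PSD-95, was at 636, 397, 524 and 775 CPM in the SNI libraries, against 733, 787, 726 and 841 CPM in the sham libraries (-0.41 ± 0.13 log2). SNI replicate 2 was the lowest library for both genes, and only Cnih2 separated the groups. Cacng8 (-0.48), Dlg3 (-0.45), Dlgap2 (-0.62), Dlgap3 (-0.58), Dlgap4 (-0.42), Shank2 (-0.43) and Homer1 (-0.76) fell as well. The main AMPA subunit Gria1 differed by -0.20 ± 0.11 and did not pass. The ionotropic list had 2 higher and 2 lower without SNI replicate 3, 5 higher and 22 lower without SNI replicate 4, and 6 lower without sham replicate 1, 2 or 3.

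Inhibitory transmission genes had 5 of 21 higher and 0 lower (23.8% called, against 11.3% over all genes), a median of 0.33. Gad1, which makes GABA from glutamate, was at 728, 789, 679 and 626 CPM in SNI replicates 1 to 4, against 553, 521, 475 and 591 CPM in the sham replicates (0.40 ± 0.12 log2, edgeR adjusted p = 0.0318). Slc6a11, the GABA transporter of astrocytes, was at 432, 778, 571 and 183 CPM in the SNI libraries, against 187, 160, 189 and 155 CPM in the sham libraries (1.51 ± 0.31 log2, edgeR adjusted p = 0.00725). Gad1 separated the groups, and Slc6a11 in SNI replicate 4 lay within the sham range. The receptor subunit Gabrb2 (0.82) also rose. The list had 3 genes called higher without SNI replicate 3, and 8 higher and 3 lower without SNI replicate 4. The cholinergic and septal marker scores of SNI replicates 1 to 3 were above those of every sham library. With the medium spiny neuron, septal and cortical scores as covariates the list's median was 0.05. Whether tissue makeup accounts for the rise of this list was not tested.

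Of 36 genes of striatal cAMP and RGS signalling, 2 were higher and 3 lower, 13.9% against 11.3% over all genes. Adcy9, an adenylyl cyclase, was at 45.8, 42.9, 46.8 and 59.1 CPM in the SNI libraries, against 71, 62.3, 73.6 and 68.4 CPM in the sham libraries (-0.50 ± 0.09 log2, edgeR adjusted p = 0.00579). The calcium-stimulated cyclase Adcy1 fell (-1.14) with Adcy9 and Rgs14, while Adcy8 (1.29) and the phosphodiesterase Pde4d (0.40) rose. Without SNI replicate 4 the list had 6 higher and 16 lower.

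Among ion channels, Scn9a, the sodium channel Nav1.7 known for its part in pain in sensory neurons, was at 32.1, 58.6, 43.6 and 22 CPM in SNI replicates 1 to 4, against 17.5, 18.9, 15.5 and 17.5 CPM in sham replicates 1 to 4 (1.17 ± 0.21 log2, edgeR adjusted p = 0.00579). All SNI libraries were above all sham libraries. The sodium channel Scn1a (0.76) and the calcium channel subunit Cacna2d2 (0.91) were higher and Cacnb1 (-0.48) lower, 3 and 1 of 24 sodium and calcium channel genes. Potassium channels had 4 of 38 higher and 3 lower. The shares called were 16.7% of sodium and calcium channel genes and 18.4% of potassium channel genes, against 11.3% over all genes. Kcnh1 fell (-0.74). The fast-firing channels Kcnc1 (0.72) and Kcnc2 (1.33), with Kcnb2 (0.81) and the astrocytic channel Kcnj10 (0.84), rose. Without SNI replicate 4, 14 potassium channel genes and 7 sodium and calcium channel genes were called lower, and without SNI replicate 3 none was.

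Immediate early genes, which neurons switch on within minutes of activity, had 7 of 34 lower and 0 higher, with 32 fitted differences below 0 and a median of -0.68. That is 20.6% called, against 11.3% over all genes. Egr4 was at 16.9, 3.68, 12.6 and 24.5 CPM in SNI replicates 1 to 4, against 39.9, 28.8, 42.3 and 31.5 CPM in sham replicates 1 to 4 (-1.31 ± 0.37 log2, edgeR adjusted p = 0.0243). Fosl2 was at 24.9, 12.3, 17 and 42.8 CPM in the SNI libraries, against 77.4, 42.7, 70.4 and 33.9 CPM in the sham libraries (-1.21 ± 0.38 log2). Dusp6, the phosphatase that switches off ERK, was at 15.4, 12.5, 14.7 and 24.1 CPM in the SNI libraries, against 40, 24, 38.8 and 22.1 CPM in the sham libraries (-0.91 ± 0.28 log2). Egr4 separated the groups, and for Fosl2 and Dusp6 sham replicates 1 and 3 were highest and SNI replicate 4 exceeded sham replicate 4. Egr1 (-1.10), Klf10 (-1.05), Ier5 (-0.67) and Homer1, which also belongs to the scaffold list, fell too. Fos itself was at 5.48, 7.11, 10.9 and 9.59 CPM in the SNI libraries, against 20.8, 5.42, 18.8 and 4.49 CPM in the sham libraries, and its difference of -0.59 ± 0.60 did not pass (edgeR adjusted p = 0.57). The list had 15 of 34 lower without SNI replicate 4, and 0 without SNI replicate 2 or 3 or sham replicate 1 or 3.

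Genes of neurotrophins, granins and ERK feedback had 1 of 26 higher and 4 lower, 19.2% against 11.3% over all genes. Vgf, a secreted granin, was at 248, 219, 261 and 291 CPM in SNI replicates 1 to 4, against 312, 324, 323 and 318 CPM in sham replicates 1 to 4 (-0.33 ± 0.10 log2, edgeR adjusted p = 0.0308). All SNI libraries were below all sham libraries for Vgf. Etv5, a target of ERK, fell (-0.54), as did the prohormone convertase Pcsk2 (-0.67) and Dusp6. Bdnf, the neurotrophin, was at 1.87, 5.36, 4.48 and 3.66 CPM in the SNI libraries, against 16.5, 5.82, 15.3 and 0.965 CPM in the sham libraries, and its difference of -1.33 ± 0.80 did not pass (0.10 with 3 tissue scores as covariates). Bdnf is itself part of the cortical score used as a covariate, and only sham replicates 1 and 3 were high for Bdnf. Without SNI replicate 1 or 3, or sham replicate 1 or 3, the list had 1 gene called lower.

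Of 24 clock genes, 3 were higher and 4 lower, 29.2% against 11.3% over all genes. Nr1d1, the repressor REV-ERB alpha, was at 170, 143, 158 and 184 CPM in the SNI libraries, against 191, 195, 209 and 206 CPM in the sham libraries (-0.29 ± 0.07 log2, edgeR adjusted p = 0.0103). Cry1, a repressor of the clock, was at 25.5, 18.5, 23.7 and 29.5 CPM in the SNI libraries, against 32.4, 32.1, 26.3 and 37.8 CPM in the sham libraries (-0.40 ± 0.13 log2). Cry2, its relative, was at 125, 90.8, 105 and 128 CPM in the SNI libraries, against 136, 139, 137 and 132 CPM in the sham libraries (-0.28 ± 0.08 log2). Nr1d1 and Cry2 separated the groups by small steps, and Cry1 did not. Rora and Fbxl21 (0.42) rose. Without SNI replicate 4 there were 10 clock genes called lower, and without SNI replicate 3 or sham replicate 1 there was 1. The start region of Cry1 is shown because E-boxes are the site through which the clock acts on its own genes; it covers the 250 bases before the RefSeq start at chr10:85185055-85185304 on the minus strand (GRCm38.p6), 5′ to 3′, with the E-box CACGTG in capitals.
Cry1: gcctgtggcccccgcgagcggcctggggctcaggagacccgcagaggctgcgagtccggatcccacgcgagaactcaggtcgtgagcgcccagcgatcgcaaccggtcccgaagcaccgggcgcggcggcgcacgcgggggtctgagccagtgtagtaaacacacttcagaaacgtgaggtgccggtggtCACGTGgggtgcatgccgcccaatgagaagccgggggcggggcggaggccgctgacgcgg
The time of day at which tissue was taken was not given in the labels.

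Stress hormone genes had 1 of 18 higher and 2 lower, where 7.22% of all genes were higher and 4.08% lower. Nr3c1, the glucocorticoid receptor, was at 66.6, 67.2, 67 and 87.2 CPM in SNI replicates 1 to 4, against 96.4, 83.2, 93.6 and 87 CPM in the sham replicates (-0.32 ± 0.10 log2, edgeR adjusted p = 0.0388). SNI replicate 4 stood above the other SNI libraries and inside the sham range. The mineralocorticoid receptor Nr3c2 fell as well (-0.38). Tsc22d3, a gene that glucocorticoids induce, was at 49.9, 73.7, 56.1 and 34.7 CPM in the SNI libraries, against 33.5, 35.7, 34.9 and 31.2 CPM in the sham libraries (0.66 ± 0.19 log2). Of 10 endocannabinoid genes 2 were lower (20% called, against 11.3% over all genes), both enzymes of 2-arachidonoylglycerol. Dagla, which makes it, was at 91.3, 75.5, 89.8 and 109 CPM in the SNI libraries, against 115, 121, 125 and 119 CPM in the sham libraries (-0.39 ± 0.10 log2), and Mgll, which breaks it down, was at 157, 102, 110 and 249 CPM in the SNI libraries, against 262, 260, 247 and 233 CPM in the sham libraries (-0.70 ± 0.20 log2). Without SNI replicate 4 there were 6 stress hormone genes called lower, and none without SNI replicate 1 or 3 or sham replicate 1 or 3. Dagla separated the groups, while Mgll in SNI replicate 4 lay within the sham range.

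Injury against sham gave 0 called genes on tianeptine (edgeR's quasi-likelihood test, 287 at an unadjusted p under 0.05) and 0 on saline (2311 unadjusted). The median absolute log2 difference over all genes was 0.18 on desipramine, 0.05 on tianeptine and 0.11 on saline. Each surgery group held 4, 6 and 5 libraries in that order. This median also depends on the number of libraries and on the spread between them. Whether the injury effect on desipramine differed from that under the other treatments was tested directly. Against tianeptine 0 genes passed in edgeR (4580 unadjusted, smallest adjusted p 0.0627), 976 in DESeq2 and 0 in limma. Against saline 0 genes passed in edgeR (2916 unadjusted, smallest adjusted p 0.227), 100 in DESeq2 and 0 in limma. The edgeR counts were 3626 against tianeptine and 957 against saline without SNI replicate 4 on desipramine, and with the replicate number as a block 493 and 1.

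Side by side, the injury difference of Ldha was -0.59 ± 0.10 on desipramine, -0.01 ± 0.08 on tianeptine and 0.06 ± 0.09 on saline (log2 ± SE). Gpc5 had 0.65 ± 0.10, 0.05 ± 0.08 and 0.13 ± 0.09 in the same order of treatments, and Chat had 1.33 ± 0.37, 0.10 ± 0.30 and 0.17 ± 0.33. For Itih3 the differences were 2.65 ± 0.56, 0.13 ± 0.44 and 1.22 ± 0.48, the saline one being positive as well but not past the threshold. These genes were picked for their difference on desipramine, so a larger value there is largely set by that choice. In edgeR none of them passed for the difference from tianeptine or from saline. The genes with the smallest p for the difference from tianeptine included Zfp641, at 25.3, 26.1, 26.1 and 22.1 CPM in the SNI libraries, against 19.1, 19.9, 19 and 19.5 CPM in the sham libraries on desipramine. Its injury difference on desipramine minus that on tianeptine was 0.43 ± 0.08 (edgeR adjusted p = 0.0627). The same p held for Tnfsf13b (1.37 ± 0.27), a cytokine of the TNF family, Oas1c (1.14 ± 0.23), the mitochondrial ribosomal gene Mrps17 (-0.42 ± 0.09) and Atp6v0a4 (-0.69 ± 0.15). For the difference from saline, Lifr, the receptor of leukaemia inhibitory factor (0.69 ± 0.15), Bend4 (0.74 ± 0.16), Rpusd1 (-0.43 ± 0.09) and Ccdc192 (1.72 ± 0.34) were among the genes of smallest p, all with an edgeR adjusted p of 0.227.

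**Figure D5:**
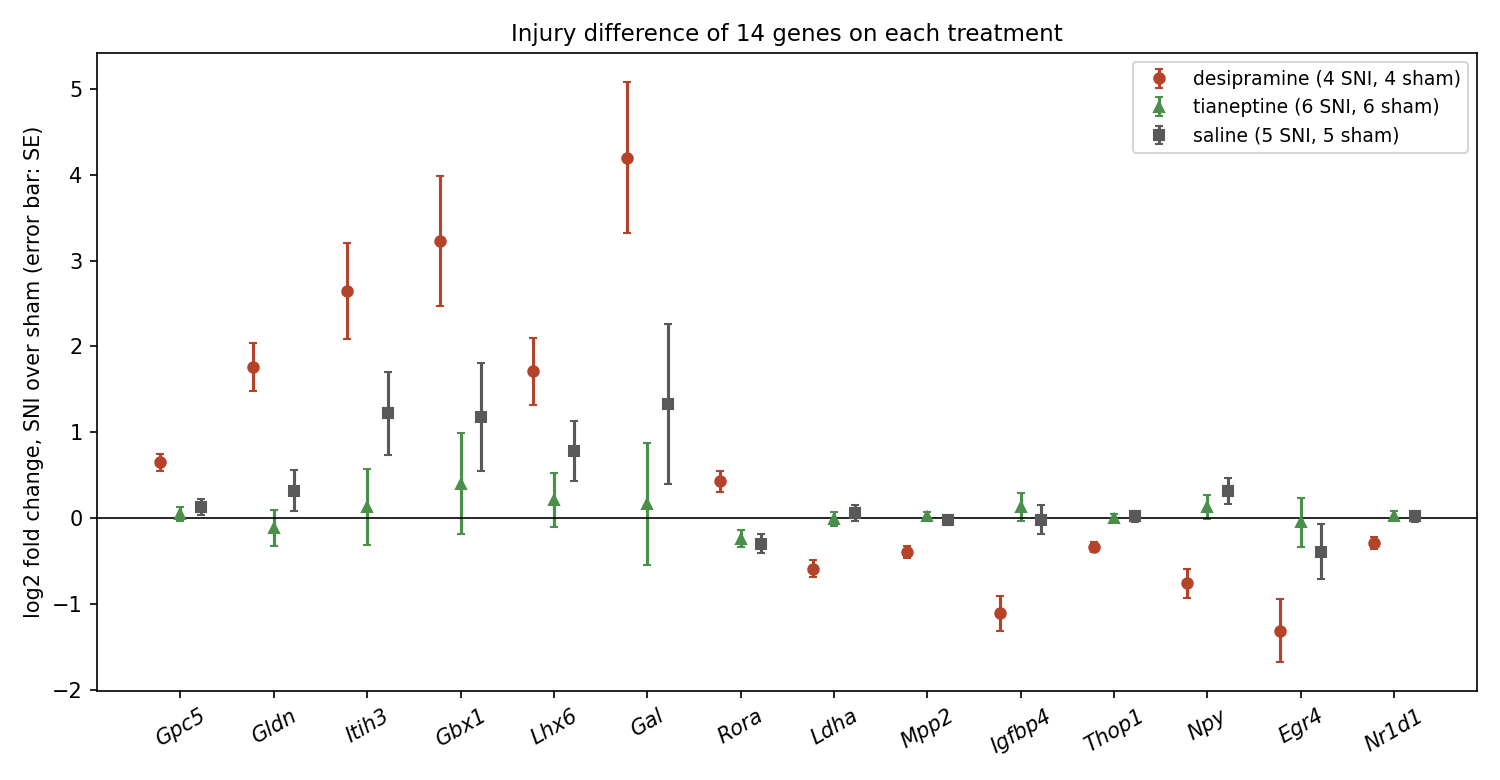
Injury minus sham on the log2 scale (points, with SE bars) for named genes on desipramine, tianeptine and saline. For Ldha and Gpc5 the desipramine points (-0.59 and 0.65) lie farther from 0 than the tianeptine points (-0.01 and 0.05). Both genes were picked for their difference on desipramine, so this is largely set by that choice.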

How the data were processed

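RNA was measured by polyA RNA sequencing in 30 libraries, 1 mouse each. The authors deposited whole-number read counts per gene; Trim Galore, HISAT2, SAMtools, featureCounts and the mm10 build are named per the submitters' processing notes, with no version or strand setting. An FPKM table was not used. Gene symbols came from GENCODE M21: of 55401 gene IDs 54349 matched exactly, 792 without the version and 260 not at all.

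Counts were fitted for all 30 libraries in edgeR 4.0.16 (R 4.3.3, limma 3.58.1): filterByExpr left 23736 genes, TMM scaling, a coefficient per surgery and treatment group and 1 for the library set, robust quasi-likelihood tests, Benjamini-Hochberg adjustment, threshold 0.05. The other treatments share the estimate of spread, with 23 residual degrees of freedom. CPM values are TMM-scaled and not divided by gene length, so levels compare libraries and not genes. No 2 desipramine libraries of the same surgery group agreed within sampling noise. The fit was tested on simulated counts. DESeq2 1.42.0, limma-voom, other scalings and filters, tissue scores as covariates and left-out libraries were alternatives.

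Members and gene lists were chosen with earlier results of these data known. Genes named were the 8 of smallest p and 5 of largest log2 difference (mean log2 CPM of at least 1) in each direction, list members that passed or led their list, the 4 highest markers of a cell type list, the 4 of smallest p for each difference between treatments, and a short set of receptor and peptide genes. Gene models known only by a predicted name were counted without being named. Some results are not reported here. Promoter windows came from RefSeq (GRCm38.p6).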

Additional observations from a re-analysis of the deposited data

Results flagged for a closer look

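In 140 groups of 4 libraries (51 genes and 19 marker scores in SNI and in sham), 5 had 1 library far from the other 3, where chance gives about 1 in 20. Slc17a7 was at 148 CPM in SNI replicate 4 and at 1.55 to 13.1 CPM in the other SNI libraries. In the same library Oprm1 was at 82.8 CPM, against 66 to 67.8 CPM in the other SNI libraries, and Nr3c1 was at 87.2 CPM, against 66.6 to 67.2 CPM. SNI replicate 2 had a score of -0.54 for markers of the islands of Calleja and olfactory tubercle, where the other SNI libraries had -0.02 to 0.08. The same library had a fibroblast and meninges score of -0.31, where the other SNI libraries had -0.64 to -0.61.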

How the results depend on the processing

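The 2682 genes called between SNI and sham on desipramine kept their direction, where fitted, under every scaling, filter and tool tried and with each single desipramine library left out. These genes were picked for a difference in these same libraries, so kept direction is largely set by that choice and is not separate support. The count was 1701 with no filter on low counts, where 44447 genes were tested, and 2084 to 3347 with other scalings, filters, tools, the first library set or the replicate block. It was 0 with 3 tissue scores as covariates (edgeR, 1821 at an unadjusted p under 0.05), 0 without SNI replicates 2 and 3 (1867) and 0 with the 8 libraries alone (4569). Leaving out 1 desipramine library at a time gave 0 (without SNI replicate 2) to 5903 (without SNI replicate 4). In alternatives chosen after seeing the data it was 0 without SNI replicates 1 to 3 (596), 0 without sham replicates 1 and 3 (5827), 0 without SNI replicates 2 and 3 and sham replicates 1 and 3 (1259), and 0 with 4 scores (605). Genes called higher made up 63.9% of the calls, 57.7% with DESeq2 size factors, 54.9% in DESeq2, 54.7% in limma and 50.4% (without SNI replicate 4) to 78.8% (without SNI replicate 3) with 1 library left out and any gene called. The difference from the injury effect on saline had 100 genes in DESeq2 and 0 to 957 with 1 library left out. That from tianeptine had 976 in DESeq2 and 0 to 3626, both highest without SNI replicate 4 on desipramine. Replicate numbers did not pair the libraries (correlations of deviations -0.16, -0.13, 0.16 and 0.15, with 2 of 4 numbers matching best). With the replicate block the counts were 3199 for desipramine, 1 for the difference from saline and 493 for that from tianeptine. With 3 tissue scores the log2 difference turned to -0.02 for Irs4, -0.11 for Asb4, -0.13 for Magel2, -0.15 for Ngb, 0.21 for Oprk1, 0.20 for Oprd1, 0.06 for Penk, 0.14 for Drd1, 0.10 for Bdnf, 0.25 for Slc17a7 and 0.08 for Slc1a2. Without SNI replicates 2 and 3 it turned to -0.07 for Trh, 0.07 for Oprk1, 0.02 for Penk and 0.03 for Drd1. Irs4, Asb4, Magel2, Ngb, Penk, Bdnf and Slc17a7 help make up the 3 scores, so their shift in the fit with scores is partly built in. The cause was not tested. Of 147 genes named with values, 134 were called, and all 134 lost the call with the 8 libraries alone and without SNI replicate 2.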

Other observations

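Gene groups outside neuronal signalling are read against 11.3% called over all genes. Of 20 cytokine, complement and gliosis genes 2 were higher in SNI, the alarmin Il33 (0.48 ± 0.13, log2 ± SE) and the hyaluronan receptor Cd44 (1.13 ± 0.37), both with overlapping groups (10% called). Of 29 chromatin regulators, the histone deacetylases Hdac1 (0.33 ± 0.08) and Hdac3 (0.22 ± 0.06) were higher and the histone methyltransferase Ehmt2 (-0.24 ± 0.06) was lower (10.3%). Srebf2, the transcription factor that drives cholesterol synthesis, was lower (-0.28 ± 0.07), and the other 21 genes of that list did not pass. Of 75 nuclear-encoded oxidative phosphorylation genes 3 were higher, among them the succinate dehydrogenase subunit Sdha (0.22 ± 0.07). The cochaperone Bag3 (0.56 ± 0.15), 1 of 2 heat shock genes of 15, and the endoplasmic reticulum chaperone Canx (0.30 ± 0.09), 1 of 2 of 24, were also higher.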
